A study of Mus musculus with 6 samples.

Results

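Lox, Loxl1, Dcn, Lum, Bgn, Fn1, Has1 and Has2 are 8 genes that build or crosslink the extracellular matrix outside the collagen chains themselves, or make its hyaluronan. They were taken by their names in the platform annotation, which listed 1 probe for each, out of 18545 named genes on the arrays. The set was chosen from earlier results on the same log ratios in all 3 comparisons, so the ratios below describe the 8 genes and no test was made of them. Total RNA of epididymis, of testis and of the stromal vascular fraction of adipose tissue (SVF, the cells of fat other than adipocytes), all from mouse, was hybridised on 6 arrays. Each pair of tissues was placed on 2 arrays with Cy3 and Cy5 exchanged, so each tissue was on 4 arrays. The design names 1 RNA sample per tissue, and no source used here gives the strain, age, fat depot or number of animals pooled. The sex of the SVF donors is also not given, whereas testis and epididymis are male organs.

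As background, lysyl oxidases are copper enzymes that oxidise lysines of collagen and elastin and so start their covalent crosslinking. Decorin, lumican and biglycan are small leucine-rich proteoglycans that sit on or near collagen fibrils and set their spacing, and biglycan and decorin carry chondroitin or dermatan sulfate chains. Fibronectin is the adhesive glycoprotein that cells assemble into fibrils through integrins, and hyaluronan synthases extrude the unsulfated polymer hyaluronan through the plasma membrane. In fat the mesenchymal cells that the SVF holds are a source of these products, and their share was not measured here.

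The deposited values are log ratios, read here as log2 of the Cy5 over the Cy3 tissue. The labels state neither the base nor the direction, so the signs are likely rather than settled, and the folds rest on base 2. Columns had medians between 0.0053 and 0.11, and the exchanged arrays of a pair correlated across probes at -0.86 (testis, SVF), -0.64 (epididymis, SVF) and -0.77 (epididymis, testis) before the second array's sign was turned. Below, the first array of a pair is the one with the first-named tissue in Cy5. Each mean ± SD covers n = 2 hybridisations of the same RNAs, an error of dye and hybridisation that leaves out animals. A gene was counted as higher or lower when both arrays gave at least 2-fold in the same direction. The marker counts below mostly went with the labels and this direction, but the lists were chosen with earlier results of these data known. They are therefore no independent check of either. All 12 epididymal duct markers were higher in epididymis than in SVF and than in testis. In testis, 12 of 14 spermatid and meiosis markers were higher than in SVF, and 11 of 13 mesenchymal progenitor and fibroblast markers were lower. Of the 14 spermatid and meiosis markers, 11 were also higher in epididymis than in SVF (median 1.95). Of the same 14, 9 were lower in epididymis than in testis (median -3.79). The source of these RNAs in the epididymis sample was not tested.

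Promoter sequence from RefSeq (GRCm38.p6) was at hand for only Has1 and Bgn among the 8 genes. Both are shown for that reason and not for their ratios. The 250 bases before each annotated start are printed 5′ to 3′ on the gene's strand, for Has1 from the minus strand at chr17:17855189-17855438 and for Bgn from the plus strand at chrX:73483351-73483600. Capitals mark matches on either strand to 5 motifs: the TATA box TATAAA, the cyclic AMP response element TGACGTCA, the AP-1 element TGANTCA, the box named for its letters CCAAT, and the GC box GGGCGG.
Has1: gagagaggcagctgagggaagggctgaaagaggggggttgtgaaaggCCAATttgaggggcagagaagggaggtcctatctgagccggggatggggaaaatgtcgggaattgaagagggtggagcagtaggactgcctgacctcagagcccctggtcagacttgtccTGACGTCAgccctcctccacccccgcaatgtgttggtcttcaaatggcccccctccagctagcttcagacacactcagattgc
Bgn: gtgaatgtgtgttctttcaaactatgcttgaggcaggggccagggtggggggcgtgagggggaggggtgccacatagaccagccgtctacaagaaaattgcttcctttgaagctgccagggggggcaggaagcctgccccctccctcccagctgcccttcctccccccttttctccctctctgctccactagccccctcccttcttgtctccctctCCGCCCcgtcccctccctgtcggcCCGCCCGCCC
The Has1 window held the cyclic AMP response element at -83 to -76 from the start and CCAAT at -203 to -199. Of 32851 promoter windows of the same length, 1.55% held the first and 33.8% the second. The Bgn window held 3 GC boxes in antisense, the last 2 overlapping, and 32.7% of windows held at least 1. Neither window had a TATA box (12.4% of windows) or the AP-1 element (6.75%). GC content was 58% for Has1 and 64.4% for Bgn, against a median of 52.4%. The matches describe letters only, and no binding was measured.

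All 8 genes were lower in testis than in SVF, and all 8 were lower in epididymis than in SVF. Each of the 32 values on the 4 arrays that carried SVF lay at least 4-fold below it. Among all named genes 16% were lower in testis than in SVF at 2-fold, 8.68% were lower in epididymis, and 6.95% were lower in both. At 4-fold on both arrays the shares of named genes lower in testis, in epididymis and in both were 7.61%, 3.64% and 3.12%. None of the 8 genes was higher in testis or in epididymis than in SVF, as 20.7% and 10.2% of named genes were at 2-fold. Since the members were picked with these ratios in view, their count against those shares is not evidence about the set. The median log2 ratio over the 8 genes was -4.85 for testis over SVF and -3.71 for epididymis over SVF, where all named genes had medians of 0.0038 and 0.071. Between epididymis and testis 4 genes were higher in epididymis and none was lower, where 14.3% and 18% of named genes were. At 4-fold on both arrays 3 genes were higher in epididymis, where 4.99% of named genes were. Whether a tissue had fewer cells of a type or less of an RNA per cell cannot be told apart in bulk RNA.

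**Figure D1:**
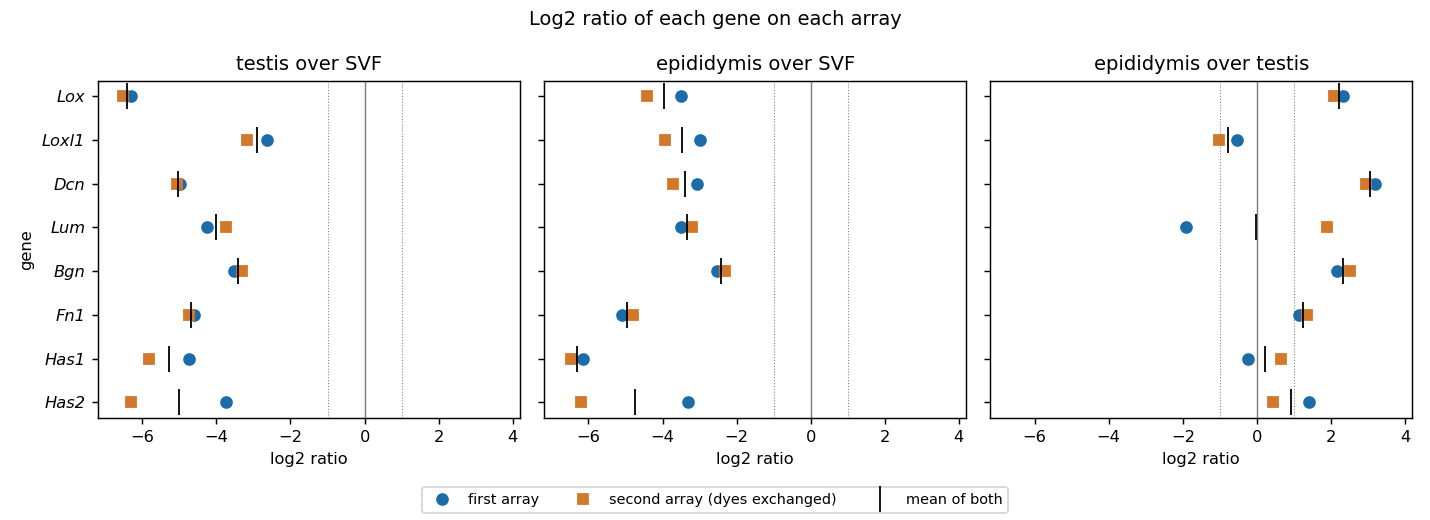
Log2 ratios of the 8 genes on each array (x axis, log2) in the 3 comparisons, with circles for the first array, squares for the dye-exchanged array, bars for their mean and dotted lines at 2-fold. All values of testis over SVF and epididymis over SVF lie left of the dotted lines, while epididymis over testis spans both sides, and the Has2 and Lum pairs stand far apart in some panels.

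The lysyl oxidase pair differed most in testis against SVF. Lox, the founding enzyme of the family, had log2 ratios of testis over SVF of -6.32 and -6.53 on the 2 arrays. With a mean of -6.42 ± 0.15 it was 85.7-fold lower in testis and had the 13th lowest ratio of all named genes. In epididymis over SVF Lox stood at -3.50 and -4.41, a mean of -3.96 ± 0.64 or 15.5-fold lower. Set directly against testis, epididymis had 4.64-fold more Lox (2.33 and 2.09, mean 2.21 ± 0.17). The order of levels was thus SVF, epididymis, testis, and every step was larger than the spread between the 2 arrays.

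Loxl1, the relative of Lox known in mice for its part in elastic fibre upkeep, ran the other way between the reproductive tissues. Its log2 ratios were -2.63 and -3.17 for testis over SVF (mean -2.90 ± 0.38, 7.46-fold lower in testis). For epididymis over SVF they were -3.00 and -3.94 (mean -3.47 ± 0.67, 11.1-fold lower in epididymis). Epididymis over testis gave -0.54 and -1.02, both negative, with a mean of -0.78 ± 0.34 that did not reach 2-fold on both arrays. Lox minus Loxl1 was -3.52 ± 0.23 in testis over SVF, -0.49 ± 0.03 in epididymis over SVF and 2.99 ± 0.17 in epididymis over testis. The gap between the 2 genes was larger than the spread between arrays in all 3 comparisons, and smallest in epididymis over SVF.

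Of the proteoglycans, Dcn had the lowest ratio in testis. Dcn, which encodes decorin, stood at -4.99 and -5.07 for testis over SVF, a mean of -5.03 ± 0.06 or 32.7-fold lower in testis. Epididymis over SVF gave -3.06 and -3.72 (mean -3.39 ± 0.46, 10.5-fold lower). Epididymis over testis gave 3.18 and 2.95, a mean of 3.07 ± 0.16 or 8.38-fold higher in epididymis. This direct ratio was the highest of the 8 genes in epididymis over testis, above that of 97.8% of named genes. The order was SVF, epididymis, testis by the direct arrays and through the third tissue, but the sizes moved beyond the spread between arrays. Through the third tissue Dcn was 87.8-fold lower in testis than in SVF and 3.12-fold higher in epididymis than in testis, where Lox was 5.52-fold higher.

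Bgn, which encodes biglycan, had the same order with smaller steps. It stood at -3.51 and -3.30 for testis over SVF (mean -3.40 ± 0.15, 10.6-fold lower in testis). For epididymis over SVF it stood at -2.53 and -2.32 (mean -2.43 ± 0.15, 5.37-fold lower in epididymis). Epididymis over testis gave 2.15 and 2.51, a mean of 2.33 ± 0.25 or 5.03-fold higher in epididymis. Through the third tissue Bgn was 27.0-fold lower in testis than in SVF and 1.97-fold higher in epididymis than in testis (0.98), below the 2-fold rule. The SDs, at most 0.25, leave out this difference between routes.

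Lum encodes lumican, a keratan sulfate member of the family. Its log2 ratios were -4.25 and -3.75 for testis over SVF (mean -4.00 ± 0.35, 16.0-fold lower in testis) and -3.51 and -3.19 for epididymis over SVF (mean -3.35 ± 0.22, 10.2-fold lower in epididymis). The direct arrays of epididymis and testis contradicted each other, at -1.93 on the first and 1.90 on the second. Their mean of -0.01 ± 2.70 therefore gives no order for these tissues, and the SD was larger than that of 99.2% of named genes. The path through SVF gave 0.65 for epididymis over testis. Lum is measured as highest in SVF, and its level in epididymis against testis is unsettled here.

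Fn1, the fibronectin gene, was lower by nearly the same amount in both tissues on the direct arrays only. Testis over SVF gave -4.61 and -4.75 (mean -4.68 ± 0.10, 25.7-fold lower in testis). Epididymis over SVF gave -5.10 and -4.80 (mean -4.95 ± 0.21, 30.9-fold lower in epididymis). Through the third tissue Fn1 was 72.8-fold lower in testis and 10.9-fold lower in epididymis than in SVF. The path through SVF gave -0.27 for epididymis over testis, whereas the direct arrays gave 1.13 and 1.34, a mean of 1.24 ± 0.15 or 2.35-fold higher in epididymis. The direct and indirect values thus differ in sign, by more than the spread between arrays, and the order of epididymis and testis for Fn1 is not settled.

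Both hyaluronan synthase genes had low ratios, with different precision. Has1 stood at -4.74 and -5.81 for testis over SVF (mean -5.27 ± 0.75, 38.7-fold lower in testis). For epididymis over SVF it stood at -6.14 and -6.46, a mean of -6.30 ± 0.23 or 78.9-fold lower, the 6th lowest ratio of all named genes. Epididymis and testis did not differ beyond the spread between arrays, at -0.25 and 0.66 (mean 0.21 ± 0.64). Through the third tissue Has1 was 91.0-fold lower in testis and 33.6-fold lower in epididymis than in SVF. Has1 was thus higher in SVF than in either tissue, with epididymis and testis not ordered.

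Has2, the isoform that mouse embryos need for heart development, differed widely between the 2 arrays of each pair with SVF. With SVF in Cy3 its log2 ratio was -3.73 for testis over SVF and -3.32 for epididymis over SVF, which are 13.3-fold and 9.97-fold lower. With SVF in Cy5 the values were -6.31 and -6.20, or 79.3-fold and 73.3-fold lower. The means were -5.02 ± 1.82 for testis over SVF and -4.76 ± 2.04 for epididymis over SVF, with SDs larger than those of 98.2% and 98.5% of named genes. Both arrays of each pair agree on the direction and on at least 4-fold, but the size is uncertain by several fold. Each dye order of a pair was on 1 array, so dye and hybridisation cannot be told apart. Epididymis over testis gave 1.42 and 0.43, a mean of 0.92 ± 0.70 that did not reach 2-fold on both arrays. Has1 minus Has2 was -1.55 ± 1.81 in epididymis over SVF and -0.25 ± 1.07 in testis over SVF, both within the spread.

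**Figure D2:**
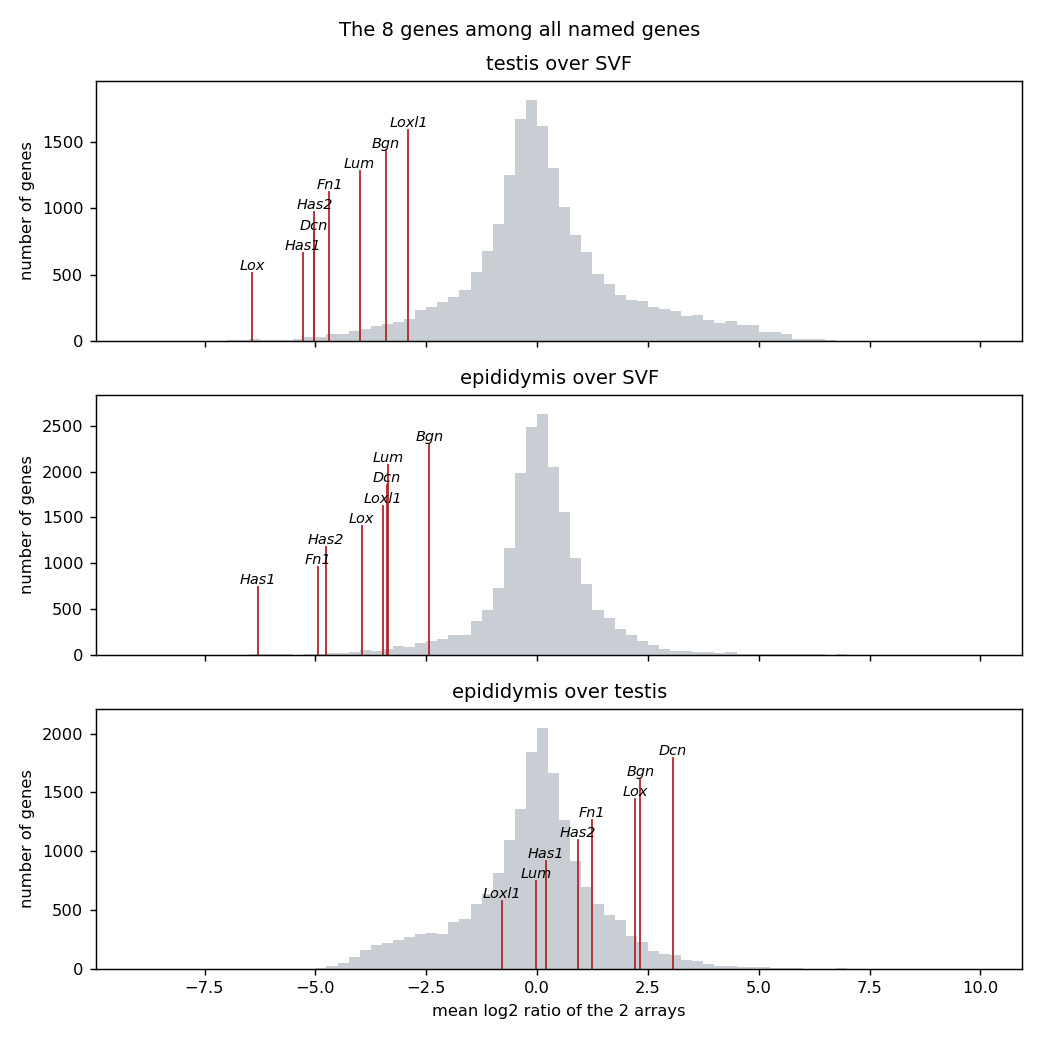
Number of named genes (y axis) by mean log2 ratio of the 2 arrays (x axis, bins in grey) in each comparison, with red lines at the 8 genes, whose heights only separate the labels. In the upper panels the lines stand in the left tail, from Lox at -6.42 to Loxl1 at -2.90 in testis over SVF, and in the lowest panel they run from -0.78 to 3.07.

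The 3 comparisons close a loop, so each ratio can also be read through the third tissue, on 4 arrays that the direct ratio does not use. Testis over SVF plus epididymis over testis minus epididymis over SVF would be 0 without error, and it was at most 1 in size for 92.4% of named genes. It was above 1 in size for 4 of the 8 genes: 1.51 for Fn1, 1.42 for Dcn, 1.35 for Bgn and 1.23 for Has1. It was 0.66 for Has2, -0.66 for Lum, -0.25 for Lox and -0.21 for Loxl1. Through the third tissue, log2 ratios ran from -6.51 to -2.69 for testis over SVF and from -5.07 to -1.07 for epididymis over SVF, so every gene stayed at least 2-fold below SVF by both routes. At 4-fold the indirect route kept 8 genes in testis and 6 in epididymis, where Dcn (-1.97) and Bgn (-1.07) lay above that limit. Epididymal Dcn was thus 10.5-fold lower than SVF directly and 3.90-fold lower indirectly, and epididymal Bgn 5.37-fold and 2.11-fold lower.

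**Figure D3:**
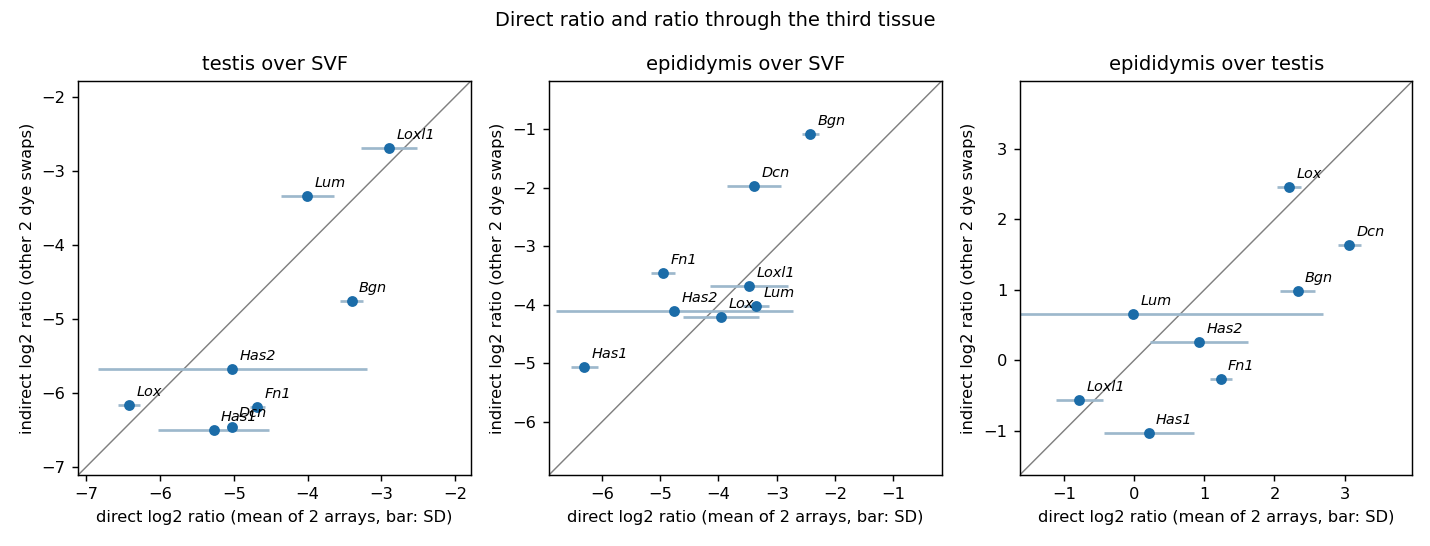
Indirect log2 ratio through the third tissue (y axis) against the direct log2 ratio (x axis, mean of 2 arrays, bars for the SD) for the 8 genes, with the line of equal values. Lox and Loxl1 lie near the line in all panels, while Fn1, Dcn, Bgn and Has1 stand off it by 1.23 to 1.51.

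The related pathway lists hold 139 other genes, of which 133 were measured. Of these, 61 were lower and 9 higher in testis than in SVF (median -0.96), 44 were lower and 4 higher in epididymis than in SVF (median -0.70), and 29 were higher and 11 lower in epididymis than in testis (median 0.37). Lysyl oxidases and collagen maturation enzymes had 10 of 16 lower in testis (median -1.26) and 7 of 16 lower in epididymis (median -0.94) than in SVF, and none higher in either. Pcolce2, an enhancer of procollagen C-proteinase, stood at -5.27 ± 0.85 in testis over SVF and -5.85 ± 1.36 in epididymis over SVF. The crosslinking transglutaminase gene Tgm2 stood at -3.36 ± 0.35 in testis over SVF. Loxl2, another lysyl oxidase, stood at -1.82 ± 0.10 in epididymis over SVF. P4ha2, a collagen prolyl hydroxylase subunit, was 14.9-fold higher in epididymis than in testis (3.89 ± 0.15). Of the remaining Lox relatives, named after their values were seen, Loxl4 was lower in testis (-2.19 ± 1.10) and in epididymis (-1.43 ± 0.16) than in SVF, and Loxl3 met the rule in neither (-0.70 ± 0.22 and -0.54 ± 0.04).

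Elastic fibre and microfibril genes had 10 of 15 lower and 1 higher in testis than in SVF (median -2.57), and 8 lower and 1 higher in epididymis than in SVF (median -1.31). Fbln2 stood at -4.60 ± 0.33 in testis over SVF and -3.84 ± 0.50 in epididymis over SVF, Efemp1 at -4.56 ± 0.08 in testis over SVF and the microfibril gene Mfap5 at -3.91 ± 0.79 in epididymis over SVF. Against the list, the fibrillin gene Fbn2 was 5.43-fold higher in testis than in SVF and Ltbp2 was 2.73-fold higher in epididymis than in SVF. Between epididymis and testis 7 were higher in epididymis and 2 in testis, with Ltbp3, which tethers latent TGF-beta, at 3.18 ± 0.34.

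The other small leucine-rich proteoglycans had 6 of 13 lower and none higher in testis than in SVF (median -0.86), and 4 lower and 1 higher in epididymis than in SVF (median -0.58). Ogn, osteoglycin, stood at -4.75 ± 0.17 and Prelp at -4.35 ± 0.15 in testis over SVF. In epididymis over SVF Prelp stood at -3.32 ± 0.20 and Aspn, asporin, at -2.71 ± 0.25, and Optc was 3.20-fold higher in epididymis. Fmod, fibromodulin, was 9.36-fold higher in epididymis than in testis (3.23 ± 0.82). Matrix glycoproteins and matricellular genes had 10 of 20 lower and 1 higher in testis than in SVF (median -1.25) and 8 lower in epididymis than in SVF (median -0.96). Matn2 stood at -4.74 ± 0.08 and periostin, Postn, at -4.71 ± 0.14 in testis over SVF. The basement membrane genes Nid2 and Nid1 stood at -3.22 ± 0.63 and -3.04 ± 0.96 in epididymis over SVF, and Comp was 4.07-fold higher in testis than in SVF.

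Among fibronectin receptors 7 of 13 were lower in testis (median -1.23) and 3 lower and 1 higher in epididymis (median -0.70) than in SVF. Itga5, the alpha chain of the main fibronectin receptor, stood at -2.52 ± 0.34 in testis over SVF and -2.61 ± 0.06 in epididymis over SVF. Sdc1, the syndecan of epithelia and plasma cells, was 4.66-fold lower in testis and 3.11-fold higher in epididymis than in SVF, and 15.5-fold higher in epididymis than in testis. Enzymes of chondroitin and dermatan sulfate chains had 9 of 22 lower and 1 higher in testis (median -0.65) and 6 lower in epididymis (median -0.50) than in SVF. The sulfotransferase Chst7 stood at -4.65 ± 0.22 and the dermatan sulfate epimerase Dse at -4.38 ± 0.72 in testis over SVF, and at -3.06 ± 0.53 and -3.67 ± 0.92 in epididymis over SVF. Ust was 4.22-fold higher in testis than in SVF.

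**Figure D4:**
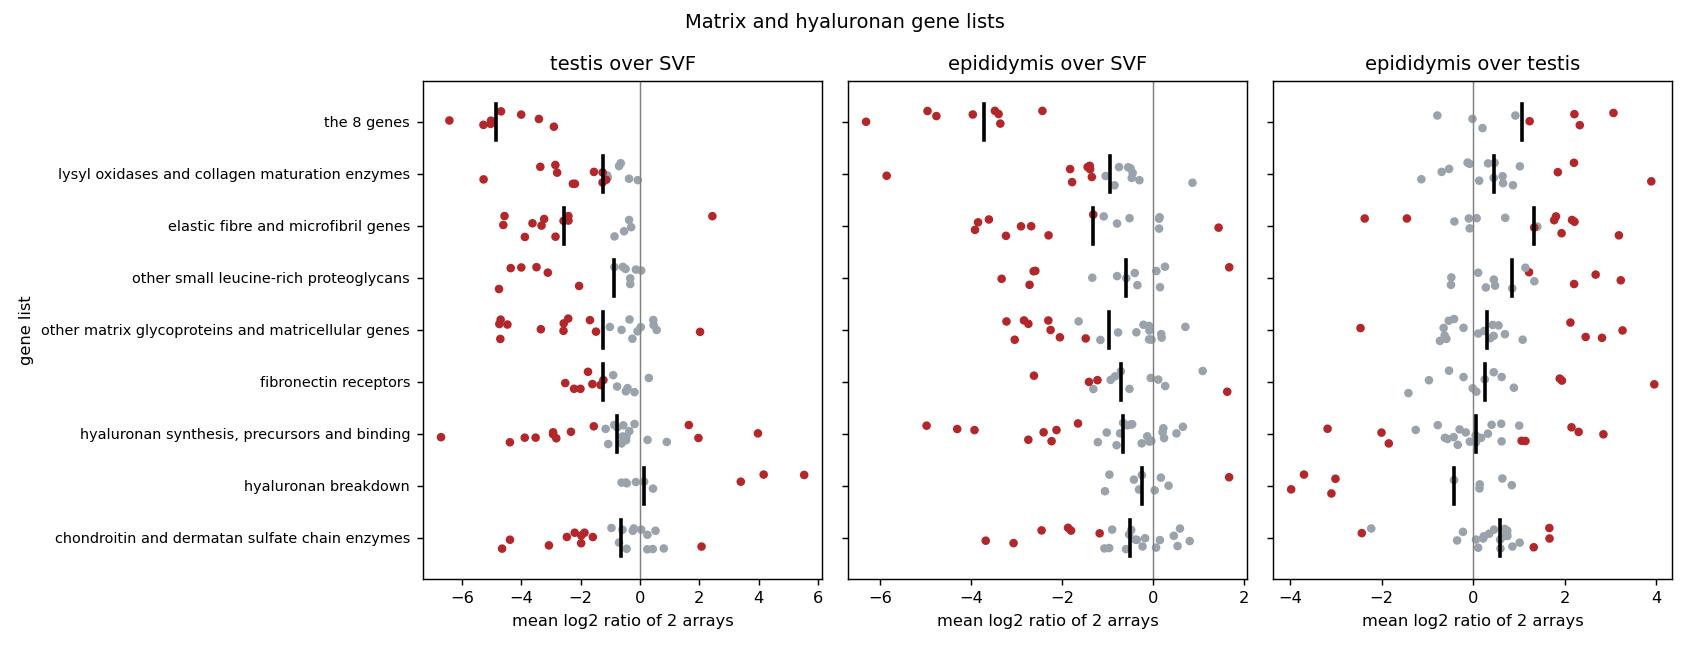
Mean log2 ratio (x axis) of each measured gene of the 8 genes and 8 related lists (rows) in the 3 comparisons, red where both arrays reached 2-fold in the same direction and grey otherwise, with black bars at list medians. The 8 genes have a median of -4.85 in testis over SVF, and hyaluronan breakdown is the list with 3 genes above 3 there.

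Around the hyaluronan synthases, 9 of 25 genes of precursor supply and hyaluronan binding were lower and 3 higher in testis than in SVF (median -0.77), and 8 were lower and none higher in epididymis than in SVF (median -0.65). Ugdh, which makes the UDP-glucuronate that the synthases polymerise, was 20.9-fold lower in testis than in SVF (-4.38 ± 0.66). Gfpt1, which opens the route to the other sugar donor, was 15.7-fold higher in testis (3.98 ± 0.22), and its paralogue Gfpt2, named after its values were seen, was lower in testis (-2.82 ± 0.40) and in epididymis (-3.92 ± 0.79) than in SVF. The hyaluronan receptor of lymphatic vessels, Lyve1, stood at -6.70 ± 0.77 in testis over SVF and -4.97 ± 0.85 in epididymis over SVF. Ptx3, a pentraxin of the hyaluronan-rich matrix of the mouse ovarian follicle, stood at -4.30 ± 0.21 in epididymis over SVF, and Stab2, a hyaluronan scavenger receptor, was 3.92-fold higher in testis than in SVF. Has3, the third synthase, named after its values were seen, met the rule in no comparison, at -0.59 ± 0.20 for testis over SVF, 0.25 ± 0.49 for epididymis over SVF and 0.06 ± 0.02 for epididymis over testis.

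Hyaluronan breakdown genes did not have the low ratios of Has1 and Has2 against SVF. Of 9 measured, 3 were higher and none lower in testis than in SVF (median 0.14), and 1 was higher in epididymis than in SVF (median -0.24). In epididymis 4 were lower than in testis (median -0.42). Among all named genes 20.7% were higher in testis and 10.2% higher in epididymis than in SVF, and 18% were lower in epididymis than in testis. With 9 genes, these counts are not read as a result about the list. The hyaluronidase genes Hyal6 and Hyal5 were 46.3-fold and 18.0-fold higher in testis than in SVF (5.53 ± 0.50 and 4.17 ± 0.10). Spam1, the sperm surface hyaluronidase, named after its values were seen, stood at 3.40 ± 0.47. The somatic hyaluronidases Hyal1 and Hyal2, named likewise, stood at -0.14 ± 0.49 and -0.62 ± 0.37 and met the rule in no comparison.

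Markers of cell types found in fat had negative median ratios in testis over SVF and in epididymis over SVF, except that smooth muscle markers had a positive median in epididymis over SVF. Of fibrillar and type VI collagen genes 7 of 8 were lower in testis (median -3.04) and 7 of 8 lower in epididymis (median -2.33) than in SVF. The exception was the collagen VI gene Col6a3, named after its values were seen, at -0.74 ± 0.19 in testis over SVF and 0.49 ± 0.15 in epididymis over SVF. Mesenchymal progenitor and fibroblast markers had 11 of 13 lower in testis (median -2.73, range -5.17 to 0.05) and 7 of 13 lower in epididymis (median -2.35, range -4.05 to 0.25). Macrophage markers had 9 of 11 lower in each (medians -3.46 and -3.08) and endothelial markers 7 of 10 in each (medians -2.25 and -2.08). Mesothelial markers had 4 of 8 lower in each (medians -1.40 and -1.37), and adipocyte markers 6 of 9 in testis and 3 of 9 in epididymis (medians -2.12 and -0.79). Against these lists, the macrophage marker Aif1 was 3.44-fold higher and the adipocyte lipase gene Lipe 4.01-fold higher in testis than in SVF. Smooth muscle markers had 4 of 8 lower and 1 higher in testis than in SVF (median -1.78), and none lower and 3 higher in epididymis than in SVF (median 0.88). Actg2, the enteric smooth muscle actin gene, stood at 3.62 ± 0.44 in testis over SVF and 4.07 ± 0.33 in epididymis over SVF. Sertoli and Leydig markers had 7 of 10 higher in testis than in SVF (median 3.85) and 3 of 10 higher in epididymis than in SVF (median 0.90), with none lower. Pdgfrb, a receptor of mesenchymal and mural cells, stood at -5.02 ± 0.19 in testis over SVF, and Cd248 at -4.05 ± 0.36 in epididymis over SVF. In epididymis over testis, higher counts were 6 of 8 for collagens, 6 of 13 for mesenchymal markers, 4 of 8 for smooth muscle markers, 5 of 11 for macrophage markers, 2 of 10 for endothelial markers, 3 of 8 for mesothelial markers and 5 of 9 for adipocyte markers. In that comparison 1 gene each was lower among macrophage (Aif1), mesothelial (Muc16) and adipocyte markers (Lipe). The part of these markers in the ratios of the 8 genes was not tested, and the files hold ratios rather than levels, so it is not known which markers were at background.

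Genes of early response and stress were read in the same way. Of these, 16 of 20 were lower in testis (median -4.15) and 15 of 20 lower in epididymis (median -3.40) than in SVF, with Egr1 at -6.94 ± 0.20 in testis over SVF and Fos at -6.67 ± 0.94 in epididymis over SVF. Cytokine-induced genes had 13 of 14 lower in testis (median -5.30) and 12 of 14 lower in epididymis (median -5.25), with Nfkbiz at -6.66 ± 0.09 in testis over SVF and Il6 at -7.75 ± 0.93 in epididymis over SVF. Epididymis over testis gave 8 of 20 and 4 of 14 higher in epididymis. The early response list ran from -6.94 to -0.03 in testis over SVF and from -6.67 to -0.04 in epididymis over SVF. The cytokine-induced list ran from -6.84 to -0.27 and from -7.75 to -0.05. All 8 genes lie within these ranges, but so would most genes lower than SVF, so this shows no likeness. The part of the induced genes in the ratios of the 8 genes was not tested.

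**Figure D5:**
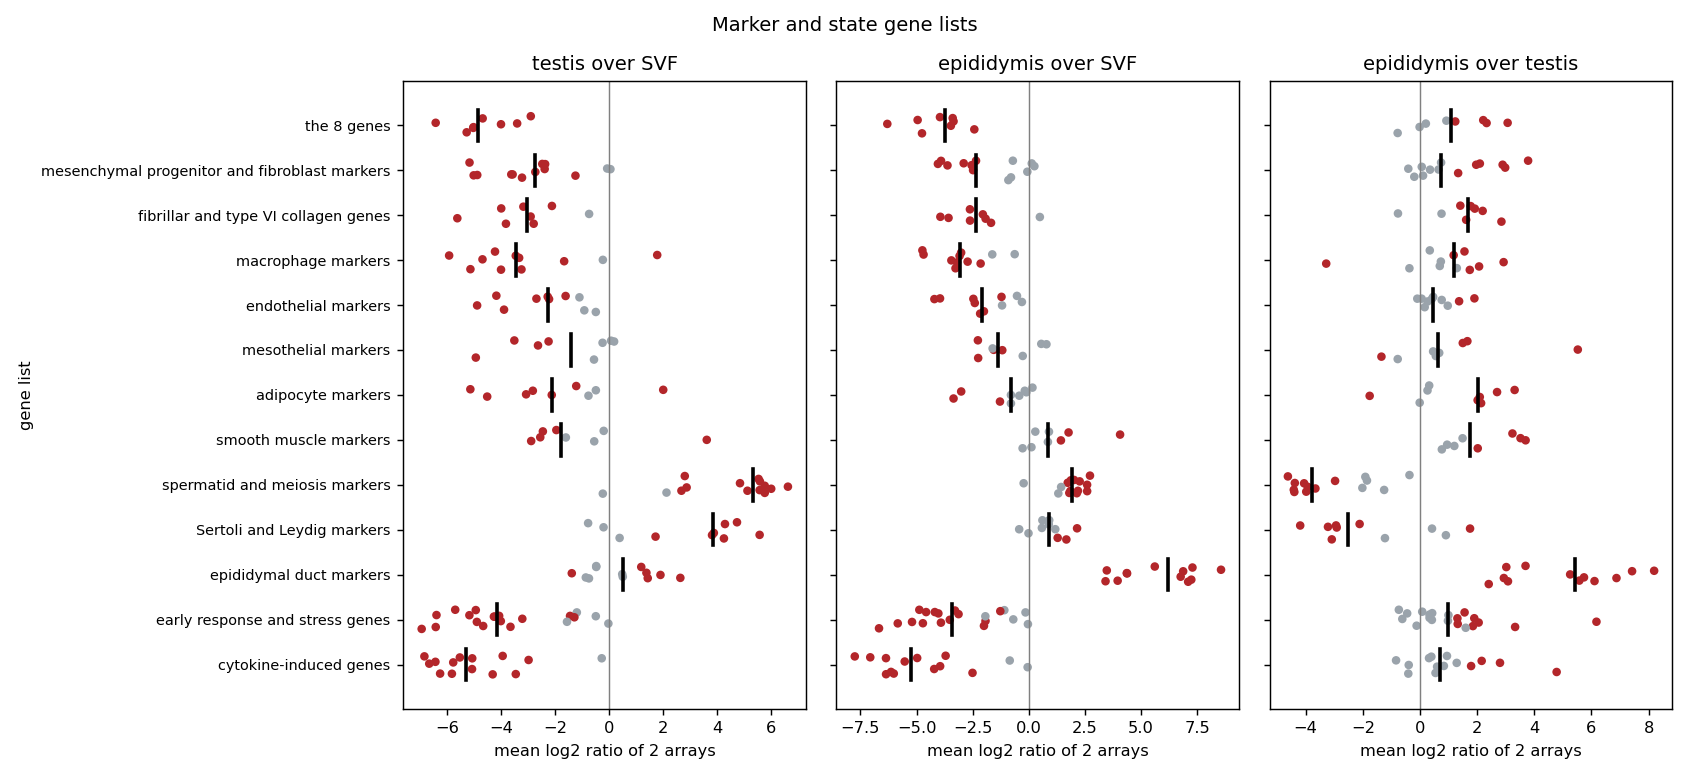
Mean log2 ratio (x axis) of each measured gene of the 8 genes and of 12 lists of cell type markers and induced genes (rows) in the 3 comparisons, red where both arrays reached 2-fold in the same direction, black bars at medians. Cytokine-induced genes (medians -5.30 and -5.25 against SVF) lie furthest left in the first 2 panels, and by median spermatid markers lie furthest right in the first and duct markers in the second.

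The genes closest in pattern were sought by Euclidean distance over the 6 log2 ratios among all named genes, the arrays of a pair sharing their RNAs. The nearest to Has1 were Il1b and Cxcl1 (distances 1.16 and 1.31, against a median of 12.0 over all genes), and Fn1 was the 20th nearest. Those nearest to Has2 were Procr and Fosb (1.73 and 1.80, median 10.6). Fn1 lay closest to Ccl5 and Nr4a1 (0.71 and 0.85, median 10.1). Dcn lay closest to Pmp22 and Hsd11b1 (0.81 and 0.98, median 9.85), with Lox its 97th nearest. For Lox these were Rab7b and Ackr3 (1.11 and 1.37, median 11.4), with Dcn 29th. Bgn was nearest to the basement membrane collagen gene Col4a1 and to Cfb (0.69 and 0.86, median 7.08), and Loxl1 to Angptl4 and Bcl6b (0.38 and 0.49, median 7.01). Lum had Gpr171 and Fmo1 (1.56 and 1.57, median 8.25). The distance takes single arrays, so a shared gap between the arrays of a pair also brings genes close. In epididymis over testis the SD was 2.70 for Lum, 1.25 for Gpr171 and 2.52 for Fmo1. In epididymis over SVF it was 2.04 for Has2, 1.28 for Procr and 1.32 for Fosb. No member was among the 2 nearest genes of another member.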

How the data were processed

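Total RNA of epididymis, testis and adipose SVF was hybridised on 6 two-colour arrays, as 3 dye swaps. The authors deposited 1 log ratio per probe and array, read here as log2, for 25344 probes with no missing value. No source used here gives the base, direction, background correction or normalization. Spot intensities were not used, so which probes were above background is unknown, and precision is limited by the number of arrays.

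Of 21112 probes in the platform annotation, 20924 were named, 20456 by gene ID, 220 by symbol and 248 by the annotated name. Another 158 with non-mouse symbols and 30 with several genes stayed unnamed. A gene's value was the mean of its probes. The sign of each second array was turned. Each tissue being 1 RNA sample, tissues were compared by size alone. Loop estimates were least-squares fits over the 3 tissues.

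The members and the 20 other lists were chosen with earlier results of these data known. Named list genes were the 2 with the largest mean log2 ratio in size among those meeting the 2-fold rule, plus up to 2 against the list's median, and the 2 nearest genes of each member. The calculations, tested on simulated data, used Python 3.11.15, pandas 2.3.3 and numpy 2.4.6. Alternatives were median centring, the loop estimate, the indirect path, other size rules, single arrays, single probes and natural logarithms.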

Additional observations from a re-analysis of the deposited data

How the results depend on the processing

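The counts of 8 genes lower in testis and 8 lower in epididymis than in SVF were the same under every alternative run. Only median centring, the loop estimate, the indirect path and 4-fold on both arrays could have lowered them. Single arrays, the mean alone and single probes could not, since the rule already asked both arrays for 2-fold and each gene has 1 probe. Reading the values as natural logarithms only enlarges the ratios. The count of 4 genes higher in epididymis than in testis was 2 through the third tissue (Lox and Dcn), 3 by the loop estimate (Lox, Dcn and Bgn), 3 at 4-fold (the same genes) and 5 without either array, with Lum (1.90) added by the second array alone and Has2 (1.42) by the first alone. The ratio of Fn1 in epididymis over testis turned to -0.27 through the third tissue; the cause was not tested. Of values below the size rule in that comparison, Has1 and Lum also changed sign by the loop estimate (-0.21 and 0.21) and through the third tissue (-1.03 and 0.65). Read as natural logarithms, 21 of 24 member ratios moved by more than their SD, with the same sign. Median centring moved none by that much. Through the third tissue 15 of the 24 moved by that much and 1 more, that of Fn1, was reversed, while the loop estimate moved 10. The SDs thus leave out differences between routes. No paired analysis was possible because the labels give no replicate numbers and each tissue is 1 RNA sample.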

Other observations

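In RefSeq (GRCm38.p6) the protein-coding genes Dcn, Lum, Kera and Epyc follow one another on chromosome 10, and all 4 encode small leucine-rich proteoglycans. Dcn and Lum were lower in testis and in epididymis than in SVF, whereas Kera, keratocan, stood at -0.14 ± 0.21 for testis over SVF and 0.16 ± 0.02 for epididymis over SVF, and Epyc, epiphycan, at -0.58 ± 0.08 and -0.78 ± 0.26. The next gene, Ccer1, was higher in testis than in SVF (5.34 ± 1.31), higher in epididymis than in SVF (2.41 ± 0.08) and lower in epididymis than in testis (-4.45 ± 0.39), and Atp2b1 beyond it stood at 0.49 ± 0.28 and 0.32 ± 0.03 against SVF. On the other side of Dcn, Btg1 was lower in testis (-1.77 ± 0.06) and in epididymis (-2.79 ± 0.18) than in SVF, and Eea1 stood at -0.87 ± 0.12 and -0.51 ± 0.36. These neighbours were chosen by position, after the values of Dcn and Lum were seen.

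Both Ptgs2 and Egr2, from the induced lists, had a ratio near 0 between epididymis and SVF and a low one between testis and SVF. The gene Ptgs2, which encodes the inducible cyclooxygenase, stood at -0.05 ± 0.74 for epididymis over SVF, -5.77 ± 0.18 for testis over SVF and 4.78 ± 0.19 for epididymis over testis. Egr2 stood at -0.04 ± 0.16, -6.42 ± 0.50 and 6.17 ± 0.72 in the same order. Has1, in contrast, stood at -6.30 ± 0.23, -5.27 ± 0.75 and 0.21 ± 0.64. These genes were picked after their values were seen, and no cause was tested.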
